A study of Mus musculus with 24 samples.

Results

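Expression of S100g and of 7 other genes of vitamin D and calcium handling (Vdr, Trpv6, Cyp24a1, Cyp27b1, Atp2b1, Slc8a1 and Casr) was examined in mouse colon. These 8 genes, of 45616 gene names on the array, were represented by 12 of its 56605 probes, found by matching each probe's transcript accession to a gene symbol. The set was chosen by a measured value, the size of the S100g difference between diets in ovariectomized (OVX) females, so the values of these genes in OVX mice are given as a description without a test. Tests are reported for males and for females with intact ovaries. RNA came from C57BL/6J mice in 6 groups of 4 arrays, taken from 1 animal per array as the methods describe it: males, females and OVX females, fed either 10 kcal% fat (low-fat diet, LFD) or 45 kcal% fat (high-fat diet, HFD). Groups are written as M, F or F(OVX) with the diet added, for example M + LFD. Per the methods, mice near the average body weight of their group were taken for the arrays. The mice were 7 weeks old on arrival, males and intact females had sham surgery, and the diets were fed for 14 weeks. Every mouse, the LFD groups included, received azoxymethane (10 mg/kg) and 3 cycles of 1.5% dextran sulfate sodium, which induce colitis-associated colon tumors, and the study had no group without them. The question was which colonic genes differ with HFD in each sex and with ovarian hormones removed.

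Vitamin D acts through the vitamin D receptor, encoded by Vdr, which binds DNA together with a retinoid X receptor and switches on genes that carry calcium across the intestinal epithelium. Calcium enters at the lumen through the channel TRPV6, is carried through the cytosol by calbindin-D9k, the small calcium-binding protein encoded by S100g, and leaves at the base of the cell through the calcium pump encoded by Atp2b1 or the sodium-calcium exchanger encoded by Slc8a1. Cyp27b1 encodes the enzyme that makes the active hormone, Cyp24a1 the enzyme that breaks it down and is strongly induced by it, and Casr the calcium-sensing receptor. S100g and Trpv6 are classical targets of the vitamin D receptor in the intestine, and S100g is also known as an estrogen-responsive gene in the uterus.

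The sequences just upstream of S100g and Trpv6 are shown because these are the genes of the set whose signals moved together. They are RefSeq sequences of the mouse assembly GRCm38.p6, 250 bases ending at the base before the annotated start, written along the gene's strand, at chrX:162964600-162964849 (minus strand) and chr6:41636406-41636655 (minus strand). Capitals mark AGGTCA on either strand, the core letters that many nuclear receptors recognize.
S100g: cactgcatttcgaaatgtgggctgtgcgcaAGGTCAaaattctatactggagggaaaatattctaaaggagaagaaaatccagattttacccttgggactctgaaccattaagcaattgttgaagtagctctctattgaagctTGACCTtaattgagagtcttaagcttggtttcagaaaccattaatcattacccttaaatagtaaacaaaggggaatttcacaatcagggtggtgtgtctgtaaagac
Trpv6: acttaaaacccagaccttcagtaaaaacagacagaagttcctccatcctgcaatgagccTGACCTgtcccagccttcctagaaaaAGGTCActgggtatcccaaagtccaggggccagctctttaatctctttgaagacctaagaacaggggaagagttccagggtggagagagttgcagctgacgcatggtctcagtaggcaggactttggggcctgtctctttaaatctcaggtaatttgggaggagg
Each held 2 such matches, beginning 220 and 107 bases before the start of S100g and 191 and 165 bases before that of Trpv6. Among the 7 genes of the set with an entry in the table of promoters, the other 5 held 0 matches. At least 1 match was present in 14% and at least 2 in 1.36% of 32851 mouse promoter windows of the same length. Exact direct repeats of AGGTCA or of GGTTCA with NNN between the copies are forms of the vitamin D response element. They were found in the 250-base windows of 0 of the 7 genes on either strand, and each in 0.00609% of all windows. The palindromic estrogen response element, GGTCA and TGACC with NNN between them, was also found in 0 of the 7, and in 0.0639% of all windows. With shares so low, 0 of 7 says nothing about response elements in other forms or farther away, which were not searched. A match in letters is a description of the sequence and was not tested as a binding site. Cyp24a1 had no entry in the table.

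Values are given as log2 of the background-subtracted spot signal after quantile normalization over the 24 arrays, and a spot is called detected where the scanner software flagged it as well above background. Between 40.5% and 61.9% of probes were detected per array, and 21168 probes were detected on all 24. Males, females and OVX females were hybridized on a slide each, so sex or surgery and slide cannot be told apart, and on every slide LFD lay in the first row and HFD in the second, so diet and row cannot be told apart. The methods describe the tissue as distal colon. A pair of male arrays stood apart from that description. Hoxb13, a gene of the most distal bowel, read 2.18 and 5.04 in M + LFD replicates 1 and 2, against 12.58 to 14.79 on the other 22 arrays. The mean of 15 lower-numbered Hox genes was 7.81 and 7.40 on this pair and at most 6.16 elsewhere. The summed level of 9 small intestine markers was 12.06 and 13.51 on the pair and at most 11.45 elsewhere. Of these 9 markers 6 and 9 were detected on the pair and 4 to 6 on the other arrays, so only replicate 2 stood apart in this count. Results in males are therefore also given without this pair. The 10 colon epithelium markers were detected on every array, with a summed level of 18.2 to 18.88, and 3 of 4 kidney markers on none.

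S100g was measured by 1 probe and varied more than nearly all other genes of the array. It read 3.56, 6.66, 2.02 and 7.12 in M + LFD and 10.70, 8.02, 2.00 and 9.58 in M + HFD. It read 2.62, 4.01, 9.73 and 8.08 in F + LFD and 4.91, 6.82, 10.52 and 6.28 in F + HFD. In OVX mice the values were 8.11, 10.25, 7.40 and 9.07 on LFD and 6.30, 3.22, 4.91 and 6.77 on HFD. The male and the intact female groups each held both high and low mice, and their ranges overlapped between diets. After normalization all 4 F(OVX) + LFD arrays lay above all 4 F(OVX) + HFD arrays. Before it they did not, since F(OVX) + LFD replicate 3 had a signal of 47.3, against 88.9 and 91.7 in F(OVX) + HFD replicates 1 and 4. That array was the dimmest of all, with a 75th percentile of 124.6 and 40.5% of probes detected. S100g was detected on 18 of 24 arrays, the exceptions being the value of 2.02 in M + LFD, 2.00 in M + HFD, 2.62 and 4.01 in F + LFD, and 3.22 and 4.91 in F(OVX) + HFD. The highest detected value was 140-fold above the lowest. The SD within groups was 2.65 on the log2 scale, rank 10 of 22383 genes detected on all arrays of at least 1 group, for which the median SD was 0.35.

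Group means of S100g ran from 8.71 ± 1.24 (SD, n = 4) in F(OVX) + LFD through 7.57 ± 3.88 in M + HFD, 7.13 ± 2.40 in F + HFD, 6.11 ± 3.35 in F + LFD and 5.30 ± 1.60 in F(OVX) + HFD to 4.84 ± 2.46 in M + LFD. Each step between neighbours in this order was smaller than the SD of either neighbour. The difference that led to the choice of the set was that of OVX mice, where S100g was lower on HFD by 10.6-fold (log2 difference -3.41, SE 0.84). With normexp background correction the log2 difference was -2.20. Of 4 members in the OVX fit, S100g and Trpv6 were lower past the thresholds of the study, where 2.19% of all genes were (1.18% higher and 1.02% lower on HFD), and the groups of 2.3% of all genes did not overlap. Both were in the fit only through F(OVX) + LFD, with 2 of 4 arrays detected on HFD, and nothing is read from these counts, since this comparison chose the set. In bulk colon RNA, fewer cells of a type and less RNA per cell cannot be told apart.

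**Figure D1:**
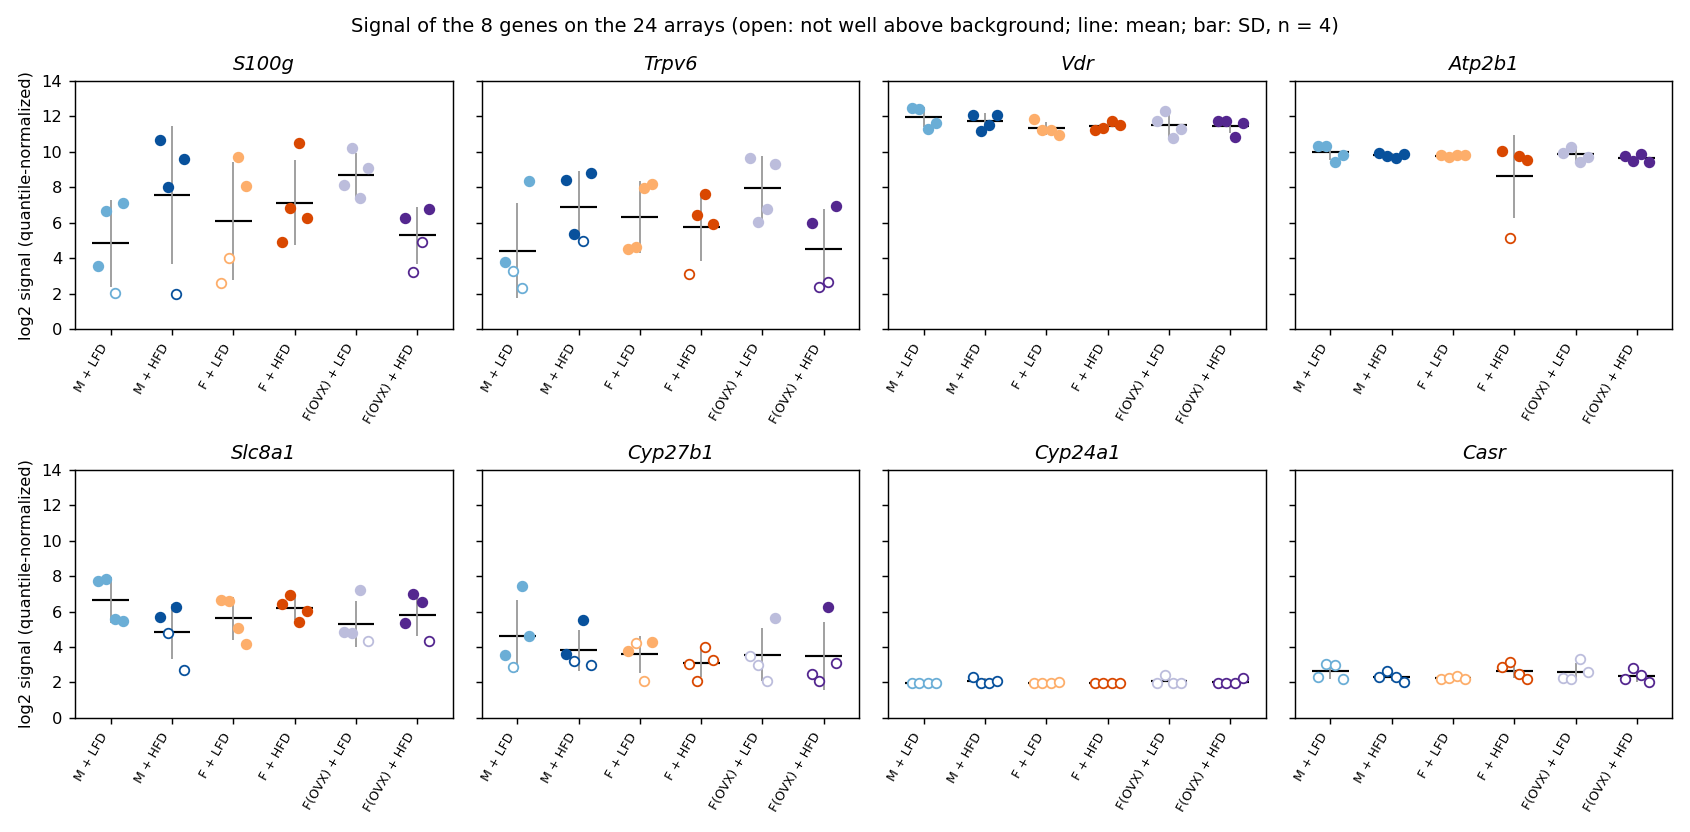
Log2 signal of the brightest probe of each of the 8 genes on the 24 arrays, by group, with the mean (line) and SD (bar) of 4 arrays. Open circles were not well above background. S100g and Trpv6 spread widely within groups, Vdr stays between 10.77 and 12.46, and Cyp24a1 and Casr are open on every array.

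Trpv6, the calcium channel of the luminal membrane, had the next widest spread among members detected on all arrays of a group. Its single probe read 3.78, 3.30, 2.31 and 8.36 in M + LFD and 8.44, 5.39, 5.0 and 8.83 in M + HFD. It read 4.53, 4.61, 7.94 and 8.20 in F + LFD and 3.09, 6.42, 7.62 and 5.94 in F + HFD. In OVX mice it read 9.67, 6.06, 6.80 and 9.30 on LFD and 5.99, 2.40, 2.68 and 6.94 on HFD. Ranges overlapped between the diets in males, females and OVX females alike, in OVX mice through the F(OVX) + HFD value of 6.94. Trpv6 was detected on 18 of 24 arrays, and its SD within groups was 2.14 (rank 44 of 22383). Means ran from 7.96 in F(OVX) + LFD through 6.91 in M + HFD, 6.32 in F + LFD, 5.77 in F + HFD and 4.50 in F(OVX) + HFD to 4.44 in M + LFD, again with steps between neighbours smaller than the SD of either. In OVX mice Trpv6 was 11-fold lower on HFD (log2 difference -3.46, SE 1.2), a description as for S100g. The difference was -4.27 to -2.76 as single arrays were left out and -1.69 with normexp background correction.

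Vdr, the receptor itself, was detected on all 24 arrays and read between 10.77 and 12.46. Its SD within groups was 0.48, rank 6793 of 22383 and above the median of 0.35, though well below those of S100g and Trpv6. Its group means lay between 11.33 ± 0.38 in F + LFD and 11.96 ± 0.58 in M + LFD. In OVX mice Vdr differed between the diets by -0.03 (SE 0.34).

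The enzymes of the hormone gave little signal. Cyp24a1, which degrades active vitamin D, was detected on 0 of 24 arrays, and its probe read 1.98 to 2.40 throughout. Cyp27b1, which makes it, was detected on 9 of 24 arrays, 3 of them in M + LFD, 2 each in M + HFD and F + LFD, 1 in each OVX group and 0 in F + HFD. Its values in M + LFD were 3.54, 2.87, 7.44 and 4.62, of which 7.44 was the highest on any array. The next highest were 6.28 in F(OVX) + HFD, 5.62 in F(OVX) + LFD and 5.52 in M + HFD, so that isolated mice and not a group were high. The calcium-sensing receptor Casr was detected on 0 of 24 arrays by either of its 2 probes, with values of 2.00 to 3.30. No fold change is given for Cyp24a1 or Casr.

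Of the genes by which calcium leaves the cell, Atp2b1 had an SD within groups of 0.99 (rank 932 of 22383), to which 1 array contributed most, and Slc8a1 one of 1.23 (rank 394). The brighter of 2 Atp2b1 probes read 9.44 to 10.32 on 23 arrays and 5.12 in F + HFD replicate 2, where it was not detected. On that array the other Atp2b1 probe read 6.49, inside its range of 5.97 to 6.49 in the group, so the low value was seen by 1 of 2 probes. The mean of F + HFD (8.62 ± 2.35) against F + LFD (9.79 ± 0.07) rests on it. The difference was -1.17 (SE 1.0) with the array and 0 without it.

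Slc8a1 had 3 probes, of which the brightest was detected on 20 arrays and the others on 3 and 2. The brightest was assigned to a non-coding transcript of the gene, and the dimmer ones to its protein-coding transcripts. All tests and correlations given for Slc8a1 use the brightest probe, so they may not reflect the RNA that encodes the exchanger. The brightest read 7.72, 7.81, 5.58 and 5.44 in M + LFD and 5.67, 4.81, 6.24 and 2.70 in M + HFD. It read 6.63, 6.61, 5.08 and 4.15 in F + LFD and 6.41, 6.92, 5.41 and 6.01 in F + HFD, and 4.85, 4.81, 7.20 and 4.32 in F(OVX) + LFD and 5.34, 7.00, 6.55 and 4.36 in F(OVX) + HFD. The ranges overlapped between diets in every case. The highest values of all belonged to M + LFD replicates 1 and 2, the arrays that were low in Hoxb13, and both dimmer probes were also detected on those arrays.

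The effect of HFD on the members was tested in males and in females. Of the members, 3 in males and 5 in females entered the fit across genes, which takes genes detected on all 4 arrays of either group. In limma, 0 of 3 and 0 of 5 passed the thresholds of the study, which are a change of 1.5-fold or more with an unadjusted p under 0.05. On the p alone 0 passed as well, and so did 0 by the methods' t-test. Over all genes 4.3% passed in males and 1.2% in females (6.1% and 2.91% on the p alone), the latter 264 genes, or 586 with the replicate number as a block. The female arrays of a number did deviate together, and the block changed no call of a member in females.

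In males S100g was higher on HFD by 2.73 on the log2 scale, a difference smaller than its pooled SD of 3.25 (exact permutation p = 0.286, two-sided). Trpv6 was higher by 2.47, close to its pooled SD of 2.37 (exact p = 0.171). Without M + LFD replicates 1 and 2 these differences were 3.0 and 1.58. Slc8a1 was lower on HFD, with a difference of -1.78 (SE 0.86, 95% interval -3.73 to 0.17, exact permutation p = 0.2, limma adjusted p = 0.817), and the difference was -0.65 without the same pair of arrays. Slc8a1 was in this fit only through M + LFD, where it was higher, with 2 of 4 M + HFD arrays detected. Leaving out M + LFD replicate 4 (-2.18) or M + HFD replicate 3 (-2.24) took it past the thresholds, as did normexp background correction (-0.84). Vdr and Atp2b1 differed by -0.24 (SE 0.33) and -0.16 (SE 0.21), and both signs turned without M + LFD replicates 1 and 2, to 0.25 and 0.18.

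In females S100g differed by 1.02 (SE 1.75, 95% interval -2.98 to 5.02, limma adjusted p = 0.991) and Trpv6 by -0.56 (SE 1.19, interval -3.27 to 2.16, adjusted p = 0.993). Each was in the fit only through the group with its higher mean. S100g was detected on 2 of 4 F + LFD arrays and Trpv6 on 3 of 4 F + HFD arrays. The sign of S100g turned when F + LFD replicate 1 (-0.14) or replicate 3 of F + HFD (-0.11) was left out, and that of Trpv6 when it was F + LFD replicate 4 (0.07) or replicate 1 of F + HFD (0.34). Slc8a1 differed by 0.57 (SE 0.59) and Vdr by 0.13 (SE 0.21). For Vdr the interval of -0.36 to 0.61 leaves out a 2-fold change either way, whereas for S100g it spans changes of many fold in either direction. The SEs and intervals given here treat the arrays as unpaired, although same-numbered female arrays deviated together.

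**Figure D2:**
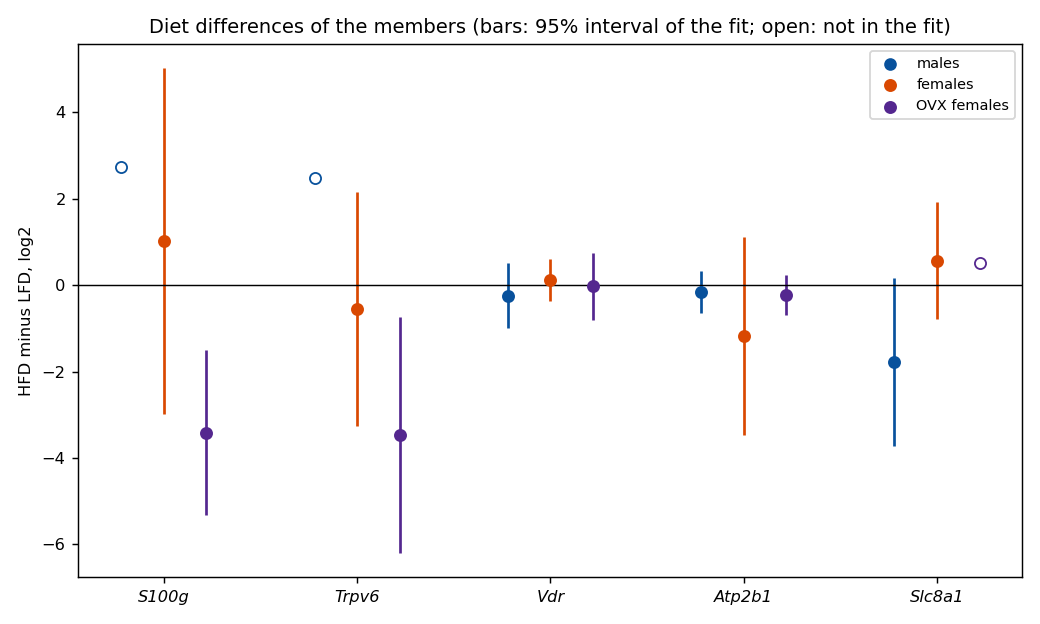
Difference HFD minus LFD (log2) of the 5 members detected on all arrays of at least 1 group, in males, females and OVX females. Filled points have the 95% interval of the fit, and open points were not in the fit. The intervals of males and females include 0 for every filled point. The OVX difference of S100g (-3.41) chose the set, so the OVX intervals, that of Trpv6 (-3.46) included, are no test.

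Whether the diet effect differed between males and females was tested as a contrast in a fit of all 24 arrays. Among 5 members, 0 passed, against 2.95% of all genes, and 0 passed on the p alone, against 3.52%. The methods' t-test was not run on this contrast. With the replicate number as a block Trpv6 (3.03) and Slc8a1 (-2.35) passed, although the numbers paired the arrays in females and not in males. The diet effect in males minus that in females was 1.71 (SE 2.49) for S100g, 3.03 (SE 2.01, limma adjusted p = 0.975) for Trpv6 and -2.35 (SE 1.16, adjusted p = 0.975) for Slc8a1. Leaving out M + LFD replicate 4 took Trpv6 (4.34) past the thresholds. Slc8a1 passed when M + LFD replicate 3 (-2.70) or 4 (-2.75), M + HFD replicate 1 (-2.62) or 3 (-2.81), F + LFD replicate 1 (-2.69) or 2 (-2.68) or F + HFD replicate 3 (-2.61) was left out, and its value was -1.22 without M + LFD replicates 1 and 2 together.

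Between males and females of the same diet, 0 of 4 members passed on LFD and 0 of 4 on HFD, by limma, by the methods' t-test and on the p alone. Over all genes 4.24% passed on LFD and 8.12% on HFD (8.24% and 13.5% on the p alone). Vdr was 0.64 higher in males on LFD (SE 0.31, 95% interval -0.08 to 1.35, limma adjusted p = 0.63). It passed when M + LFD replicate 3 (0.86) or replicate 1 of F + LFD (0.82) was left out, and was 0.15 without M + LFD replicates 1 and 2. Trpv6 differed by -1.88 (SE 1.43) in the same comparison and passed without M + LFD replicate 4 (-3.19). It was in that fit only through F + LFD, with 2 of 4 M + LFD arrays detected. On HFD, S100g differed between the sexes by 0.44 (SE 1.89) and Slc8a1 by -1.33 (SE 0.70, adjusted p = 0.43), which passed without M + HFD replicate 3 (-1.79). Both genes were in the HFD fit only through F + HFD, with 3 and 2 of 4 M + HFD arrays detected. The exact permutation tests of the members, 24 in males and females in all, gave no p below 0.143, and 4 arrays against 4 allow a smallest p of 0.0286.

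As a description, OVX and intact females are set side by side. On LFD the S100g mean was 8.71 in OVX and 6.11 in intact females, and on HFD it was 5.30 and 7.13. For Trpv6 the means were 7.96 and 6.32 on LFD and 4.50 and 5.77 on HFD. Both genes were thus higher in OVX mice on LFD and lower on HFD, with overlapping ranges each time. Vdr differed by 0.19 on LFD and 0.03 on HFD.

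S100g and Trpv6 rose and fell together from mouse to mouse. Over the 16 arrays of males and intact females, Pearson's r was 0.80 (permutation p = 0.00031, Benjamini-Hochberg adjusted 0.00124 over 4 relations) and Spearman's rho 0.79 (permutation p = 0.00049, adjusted 0.00196). It was 0.78 without the 2 arrays farthest from the median of S100g, 0.83 without M + LFD replicates 1 and 2, 0.77 on the male slide and 0.85 on the female slide, and 0.79 between deviations from the group means. On the OVX slide, which gave the set, r was 0.76, although within F(OVX) + LFD the array highest in S100g (10.25) was the lowest in Trpv6 (6.06). Slc8a1 ran the other way, with r = -0.53 (permutation p = 0.0327, adjusted 0.0654) and rho = -0.59 (permutation p = 0.0176, adjusted 0.0352), -0.48 and -0.68 on the male and female slides. For Vdr r was 0.06 (permutation p = 0.821) with rho 0.00 (permutation p = 0.996), and for Atp2b1 r was -0.01 (permutation p = 0.971) with rho 0.26 (permutation p = 0.337), each adjusted to 0.971 for r. Same-numbered female arrays deviated together, so the 16 arrays are not fully independent and these p-values may be too small.

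**Figure D3:**
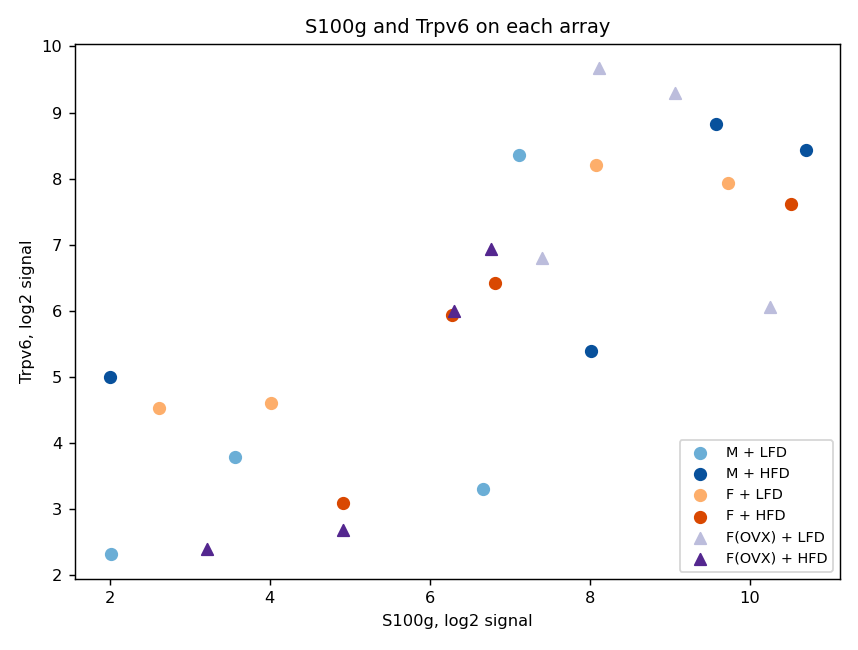
Log2 signal of Trpv6 against that of S100g on each of the 24 arrays (circles, males and intact females; triangles, OVX females), colored by group. The points rise together, with r = 0.80 over the 16 circles, but within F(OVX) + LFD the array highest in S100g (10.25) is the lowest in Trpv6 (6.06).

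The level of S100g also moved with the mean of a list of genes that mark position along the colon. Higher-numbered Hox genes are active toward the distal end of the bowel, and the mean of 6 of them (Hoxa13, Hoxb13, Hoxd10, Hoxd11, Hoxd12 and Hoxd13) ran from 2.74 to 9.48 per array. Hoxd12 was detected on 6 arrays, in M + HFD replicates 1 and 4, F + LFD replicate 3, F + HFD replicate 3 and F(OVX) + LFD replicates 2 and 4. These were the 6 arrays with the highest S100g, at 9.07 to 10.70, and the other 18 reached 8.11 at most. Not every gene of the list followed S100g in this way. Hoxa13 read 7.92 to 8.75 on these 6 arrays and 2.00 to 9.62 on the other 18. It read 9.21 in F + LFD replicate 2 and 9.43 in F + HFD replicate 2, where S100g was 4.01 and 6.82. Over all 24 arrays r between S100g and the mean of the list was 0.75, and 0.70, 0.81 and 0.80 on the male, female and OVX slides. Over the 16 arrays of males and intact females r was 0.74 and rho 0.82. This relation was chosen after the values were seen and is given without a p. Because same-numbered female arrays deviated together, the arrays of the female slide are not fully independent here either.

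In OVX mice, where S100g separated by diet, the Hox mean was 5.67 to 8.67 on LFD and 5.43 to 6.08 on HFD, and Hoxd12 was detected on 2 of 4 LFD and 0 of 4 HFD arrays. The summed level of the 6 Hox genes was 13.98 to 14.59 on LFD and 12.70 to 14.47 on HFD. Of the list, 2 genes entered the OVX fit, both lower on HFD, and 0 passed by limma. In M + LFD the Hox mean was 2.74 to 6.33 and in M + HFD 5.54 to 9.48. The part of position along the colon in the S100g differences was not tested.

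Means of several cell type marker lists also moved with S100g, some of them mostly on the female slide. The mean of 10 colon epithelium markers ran against S100g at r = -0.72 over 24 arrays, that of 7 goblet cell markers at -0.59 and that of 8 absorptive colonocyte markers at -0.46. On the male, female and OVX slides r was -0.58, -0.96 and -0.76 for epithelium and -0.67, -0.6 and -0.48 for goblet cells. For absorptive colonocytes it was -0.22, -0.86 and -0.26. Within the female slide, replicate 3 of LFD and of HFD were highest in S100g (9.73 and 10.52) and lowest in epithelium mean (13.96 and 13.85). Same-numbered female arrays deviated together, so the female arrays behind each r are not fully independent. The means of 4 uterus and oviduct markers (0.64), 6 immune cell markers (0.47) and 6 fibroblast markers (0.39) ran with S100g. On the male, female and OVX slides r was 0.09, 0.74 and 0.54 for immune and 0.26, 0.73 and 0.22 for fibroblast markers. For the uterus and oviduct genes it was 0.58, 0.66 and 0.88. Their summed level was 11.26 to 15.10 in M + LFD and 13.93 to 15.26 in M + HFD. Males lack these organs, so the list is not read as uterus or oviduct. In OVX mice all 10 epithelium and all 8 absorptive markers had higher means on HFD, of which 0 and 1 passed (Guca2a, encoding guanylin, by 0.90). The summed level was 18.2 to 18.69 on LFD and 18.59 to 18.72 on HFD for epithelium, and 16.07 to 17.38 against 16.91 to 17.73 for absorptive cells. All 8 smooth muscle markers had higher means on HFD there too, and 4 passed (Actg2, Cnn1, Des and Tagln), with a summed level of 15.49 to 16.71 on LFD and 16.60 to 17.74 on HFD. The mean of the smooth muscle list had r = -0.01 with S100g over 24 arrays and -0.55 on the OVX slide. Every marker of the epithelium, absorptive and smooth muscle lists was detected on all 24 arrays. All 6 immune markers and all 3 uterus and oviduct markers in the fit had lower means on HFD, with 0 past the thresholds by limma, and summed levels of 14.26 to 14.65 on LFD against 13.25 to 14.97 on HFD and of 13.96 to 15.52 against 12.87 to 14.68. The part of cell types in the S100g difference was not tested.

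**Figure D4:**
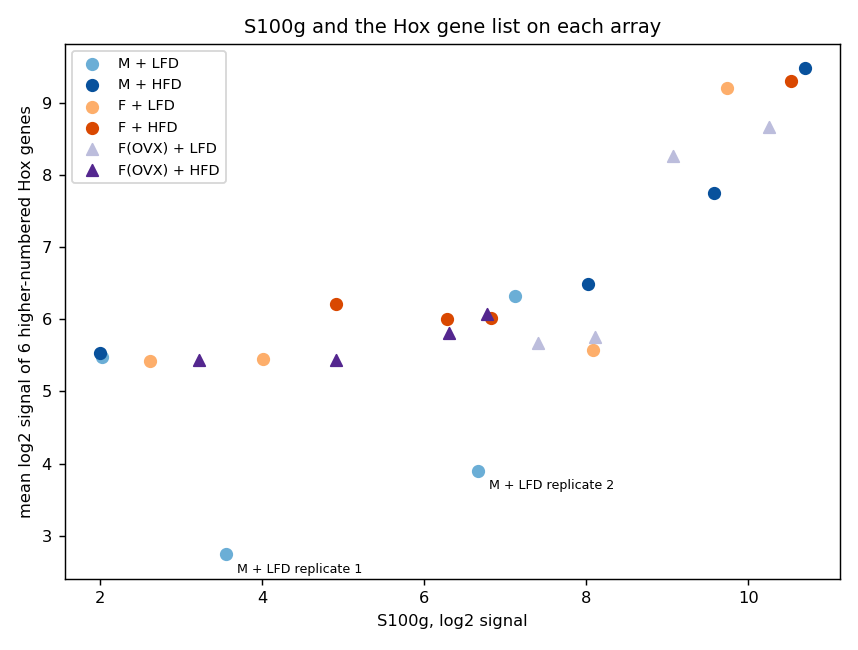
Mean log2 signal of 6 higher-numbered Hox genes against log2 signal of S100g on each of the 24 arrays, colored by group. The 6 arrays with S100g of 9.07 or more have the highest Hox means, and M + LFD replicates 1 and 2, which are labelled, have the lowest at 2.74 and 3.90.

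The genes whose signal was most like that of S100g over the 24 arrays were Tmem64 (r = 0.94), Chodl (0.92), Rnf149 (0.92), Fxyd4 (0.90) and Gk (0.89), and those most opposite were Rhbdl3 (-0.93), Slc12a8 (-0.91) and Boc (-0.90), among 22372 genes. Trpv6 ranked 70th. After the group means were subtracted, Tmem64, Chodl and Rnf149 again led, followed by a transcript without a gene symbol and by Lix1 (both 0.89). Fxyd4, which encodes a regulator of the sodium pump, differed between the diets by 5.54 in males, 1.78 in females and -4.58 in OVX mice, the same signs as S100g (2.73, 1.02 and -3.41). Tmem64, which encodes a membrane protein, differed by 1.17, -0.04 and -1.16. These correlations share the same arrays with the choice of S100g and are a description.

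The wider pathway was described with 8 lists of 84 genes on the array that exclude the 8 members. In males 7 of the 52 genes in the fit passed the thresholds, all higher on HFD, which is 13.5% against 4.3% of all genes (2.5% higher and 1.8% lower). In females 2 of 55 passed, both higher (3.64% against 1.2%, of which 0.398% higher and 0.797% lower), and in OVX mice 1 of 49 was higher and 1 lower (4.08% against 2.19%). None passed after adjustment, with the smallest limma adjusted p at 0.8. Slc37a2 and Gper1 in males, Atp2b4 in females and Slc8a2 in OVX mice were in the fit only through the HFD arrays. Each was higher there, with 3 of 4 LFD arrays detected. Without M + LFD replicates 1 and 2 the male count fell to 2 of 52 genes, Slc37a2 and Cdkn1a, while the count over all 20516 genes stayed at 847 against 882, so the share of pathway genes was then no higher than that of all genes. The count was 3 without replicate 1 alone. The female count was 0 to 3 and the OVX count 0 to 4 as single arrays were left out. Leaving out F + HFD replicate 1 or 2 gave 0 and F + LFD replicate 1, 2 or 4 gave 1. In OVX mice, leaving out replicate 3 on LFD or replicate 2, 3 or 4 on HFD gave 0, replicate 4 on LFD gave 1 and replicate 2 on LFD gave 4.

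Among 9 vitamin D target genes of the intestine, 6 were in the male fit and 1 passed, with a list median of 0.11. This was Slc37a2, which encodes a sugar-phosphate transporter. It read 6.15, 3.81, 3.64 and 8.47 in M + LFD and 9.85, 9.74, 7.85 and 9.82 in M + HFD, a difference of 3.8 (SE 1.05, limma adjusted p = 0.8). The groups overlapped through the M + LFD value of 8.47. Slc37a2 also stayed past the thresholds without M + LFD replicates 1 and 2. Its differences in females and OVX mice were 0.65 (SE 0.77) and -1.26 (SE 1.13), neither past the thresholds. The tight junction gene Cldn2, another member of the list, differed by -0.25 in males, -0.08 in females and 0.13 in OVX mice.

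Calcium pumps and exchangers other than the members gave 8 genes in the male fit, of which 2 passed. Atp2c2, which encodes a calcium pump of the secretory pathway, read 10.94 to 11.81 in M + LFD and 11.90 to 12.36 in M + HFD, with no overlap (difference 0.74, SE 0.22). Slc8b1, the mitochondrial sodium-calcium exchanger, read 7.42 to 7.75 and 7.90 to 8.99, also with no overlap (0.84, SE 0.28). In males 2.6% of all genes had groups that did not overlap, and in females 1.9%. Without M + LFD replicates 1 and 2 the differences were 0.40 and 0.73 and neither passed. Slc8b1 was lower on HFD in OVX mice (-0.95, SE 0.41), where Slc8a2, another sodium-calcium exchanger, was higher by 1.2 (SE 0.51), and the difference of the Slc8b1 effects was not tested. The OVX call of Slc8b1 was lost in 10 of 15 alternatives, the replicate block and the methods' t-test included, with -0.60 without F(OVX) + LFD replicate 2 and -0.51 by the mean of its probes. That of Slc8a2 was lost in 7 of 14, with 0.72 without F(OVX) + LFD replicate 3. In females Atp2b4, a calcium pump of the plasma membrane, was higher on HFD by 1.2 (SE 0.46), with no overlap, a call lost in 5 of 14 alternatives.

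The S100 family of calcium-binding proteins, without S100g, gave 9 genes in the male fit, 8 with higher means on HFD and 2 past the thresholds. S100a14 was higher by 1.54 (SE 0.53) and S100a16 by 0.94 (SE 0.38). In M + LFD S100a14 read 11.95 and 11.69 in replicates 1 and 2 and 13.40 and 14.15 in the others, against 14.02 to 14.89 in M + HFD. Without the low pair the differences were 0.56 and 0.23, and neither passed. In females S100b, a gene of enteric glia, was higher by 1.0 (SE 0.43), a call lost in 10 of 14 alternatives, with values of 0.55 to 1.35. All 7 enteric neuron and all 8 smooth muscle markers in the fit also had higher means on HFD in females (medians 0.48 and 0.46, with 0 past the thresholds by limma), and their part in it was not tested. In OVX mice 1 S100 gene had a higher and 8 had a lower mean on HFD, with 0 of 9 past the thresholds, in limma or the methods' t-test.

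Of the hormones and receptors of calcium and phosphate, the phosphate transporter Slc20a1 was higher in males by 1.06 (SE 0.45), and 5 of the 15 genes were detected on no array. Among receptors for ovarian hormones, Gper1, encoding a membrane estrogen receptor, was higher in males by 0.96 (SE 0.39). Neither passed without M + LFD replicates 1 and 2 (1.09 for both). The nuclear estrogen receptors Esr1 and Esr2 differed between the diets by -0.35 to -0.17 and by -0.10 to 0.12 across the 3 comparisons, and none of these passed.

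The lists for vitamin D metabolism and receptor partners, calcium entry and calcium-binding proteins of the cytosol had 0 genes past the thresholds in any comparison by limma. For vitamin D metabolism and receptor partners the largest differences were 0.43 in males for Cyp27a1 (SE 0.59), a vitamin D 25-hydroxylase, 0.54 in females for Cyp2r1 (SE 0.24), another 25-hydroxylase, and 0.36 in OVX mice for Dhcr7 (SE 0.26), which removes the precursor of vitamin D. For calcium entry they were 0.88 in males for Trpm6 (SE 0.84), -0.79 in females for Cacna1d (SE 0.56) and 0.54 in OVX mice for Cacna1c (SE 0.47), a magnesium channel and 2 voltage-gated calcium channels. For the calcium-binding proteins of the cytosol the largest difference in females was -0.25 for Calm2 (SE 0.15), which encodes calmodulin.

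**Figure D5:**
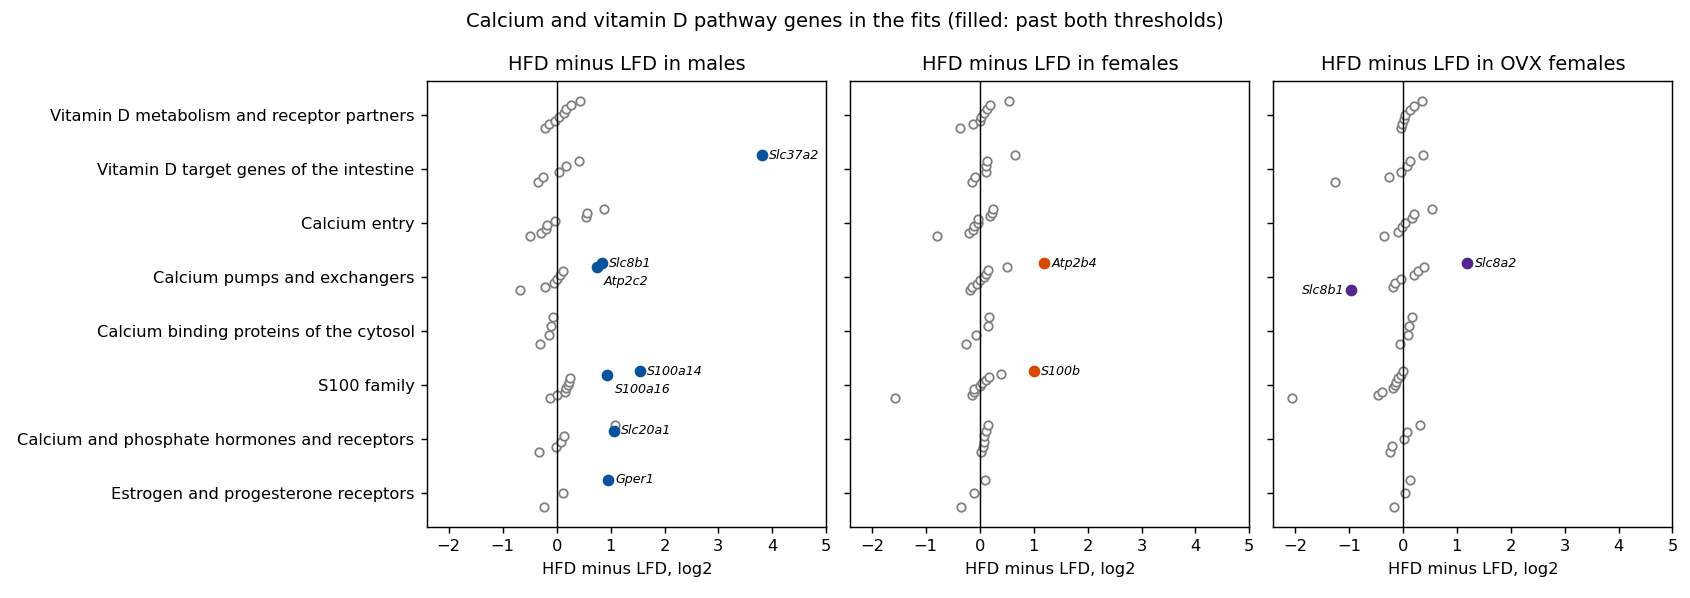
Difference HFD minus LFD (log2) of each gene of the 8 pathway lists that was in the fit, by list and comparison. Filled points passed both thresholds and are named. Males have 7 filled points, all to the right of 0, females 2 and OVX females 1 on each side.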

How the data were processed

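Colon RNA of 24 mice was labelled in 1 color and hybridized to Agilent mouse arrays. The authors extracted the spots with Agilent Feature Extraction 11.0.1.1, and the deposited signals are linear intensities per spot, background-subtracted and detrended within each array but not normalized between arrays, with flags of 0 or 1 for spots well above background, which are not detection scores. The labels give 4 samples per group, the methods 5 animals. No spot was saturated. The precision is limited by the number of arrays.

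The signals were log2-transformed with no pseudocount and quantile-normalized over 24 arrays, as in the authors' methods for log2 values, after 62976 spots were reduced to 59305 by removing control spots and outlier spots were set to missing. Accessions were matched to symbols in a RefSeq table of GRCm38.p6 (32994 of 56605 probes, 22911 symbols). The array design uses another assembly, so no coordinates of it are given. Each gene took the probe with the highest mean, and was fitted where this probe was flagged on every array of 1 or both groups. Comparisons were fitted in limma 3.58.1 (lmFit, eBayes; R 4.3.3) on the groups compared, and the difference of diet effects on all 24 arrays, and calls needed a 1.5-fold change and p under 0.05 before adjustment, with Benjamini-Hochberg adjusted p over all genes tested. The labels only number the replicates, which the methods call animals, so p-values measure the spread between these samples. The scripts were tested on simulated data.

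Members and lists were chosen with earlier results of these data known. Named pathway genes were those past the thresholds in a diet comparison, or, in lists with none, the largest difference of each comparison (some of these are not reported here), and the genes like S100g were the 5 highest and 3 lowest by r and the 5 highest within groups. Cldn2, Cdkn1a, Esr1, Esr2 and Fxyd4's differences were added after the values were seen. Permutation p-values of correlations used 100000 resamples. Same-numbered arrays deviated together in females (r = 0.25, 0.39, 0.51 and 0.23), so the numbers, which are the slide column, pair the female arrays. Male arrays gave r of 0.01, -0.22, 0.06 and 0, and OVX arrays 0.31, -0.08, 0.26 and 0.21. Alternatives were 75th percentile scaling, normexp background correction (offset 50), other filters, the methods' t-test, the replicate block, the mean of all probes, and leaving out arrays.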

Additional observations from a re-analysis of the deposited data

Results flagged for a closer look

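In 4 of 44 groups of 4 arrays of a member probe, the lowest or highest array lay far from the other 3, where chance alone flags about 1 group in 20. Vdr read 10.83 in F(OVX) + HFD replicate 3 against 11.65 to 11.75 in the other arrays of the group. The brighter Atp2b1 probe read 9.69 in F + LFD replicate 2 against 9.82 to 9.84, a small step in a tight group, and 5.12 in F + HFD replicate 2 against 9.52 to 10.08. A dimmer Slc8a1 probe read 6.18 in F(OVX) + LFD replicate 3 against 2.01 to 2.35. The brightest Slc8a1 probe was also highest in its group on that array (7.20). That array was the dimmest of all, with a 75th percentile of 124.6. Before normalization the dimmer probe had a signal of 20.1 there, against 2.96 to 6.01 in the rest of the group. The brightest probe had 41.3, against 19.3 to 30.9. In M + LFD replicate 2 a signal of 20.4 from the same dimmer probe gave 3.84. The part of normalization in the value of 6.18 was not tested.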

How the results depend on the processing

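For the members, 53 results had 818 alternative values, of which 762 kept their direction and their side of the thresholds, or, for values without a test, moved by less than the pooled SD. The count of members past the thresholds, 0 in males, was 1 (Slc8a1) with normexp and with the replicate block, and 0 to 1 as single arrays were left out. In OVX mice the count of 2 (S100g and Trpv6) was 0 when detection on all 24 arrays was required, since neither gene was then tested, 1 (S100g) with the methods' t-test, and 1 to 2 without single arrays. For the diet effect of males minus females the count of 0 was 2 (Trpv6 and Slc8a1) with the replicate block and 0 to 2 without single arrays. Between males and females the count of 0 was 2 (Vdr and Slc8a1) on LFD with the replicate block, 0 to 1 without single arrays on LFD, and 0 to 1 on HFD. The block changed no other call of a member. In males the numbers share only a slide column. In OVX mice r between same-numbered arrays was 0.31, -0.08, 0.26 and 0.21, so pairing there is unclear. The cause of these changes was not tested beyond the smaller number of arrays or genes.

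The S100g difference in OVX mice was -3.41 with 75th percentile scaling and -2.20 with normexp, where that of Trpv6 was -1.69 (from -3.46), and between -3.90 and -2.71 without single arrays. The S100g difference of OVX from intact females on LFD ranged from 1.43 to 3.80 without single arrays. Some differences crossed 0 outside the fit or in OVX mice. As single arrays were left out, Cyp27b1 ranged from -1.38 to 0.15 in males and Vdr from -0.28 to 0.23 in OVX mice. Among fitted differences of males and intact females, those that turned sign were not past the thresholds. Without M + LFD replicates 1 and 2 these were, in males, Vdr (0.25) and Atp2b1 (0.18), for males minus females in the diet effect Vdr (0.12), and for males minus females on LFD Atp2b1 (-0.16) and Slc8a1 (-0.11). Without single arrays S100g ranged from -0.14 (and -0.11) to 2.23 in females and from -0.60 (with -0.30 and -0.22) to 2.30 for males minus females on HFD, Trpv6 from -1.17 to 0.34 (with 0.07) in females, and the Atp2b1 difference of diet effects from -0.16 to 1.5.

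The number of genes past the thresholds, which sets the background of every count, moved more. It was 882 in males, 567 with normexp, 489 with the methods' t-test and 582 to 1476 without single arrays. In females it was 264, then 80 with normexp, 108 with detection on all arrays, 627 with no filter, 125 with the methods' t-test, 586 with the block and 147 to 649 without single arrays. In OVX mice it was 421, then 270, 843 with no filter, 209 with the methods' t-test and 208 to 685. For the difference of diet effects 660 became 1056 with no filter, 1150 with the block and 416 to 1226. For males against females on LFD 942 became 401 with normexp, 515 with detection on all arrays, 1671 with no filter, 1658 with the block and 653 to 1586, and on HFD 1653 became 905 and 1101 with normexp and the methods' t-test. The count of pathway genes in males was 4 with the methods' t-test. In females it was 1 with 75th percentile scaling or no filter and 0 with normexp, detection on all arrays or the methods' t-test. In OVX mice it was 3 with normexp, 1 with detection on all arrays, no filter or the mean of probes and 0 with the methods' t-test. These alternatives for the pathway genes were chosen after seeing the data. The t-test of the difference of diet effects was not run.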
